A study of Mus musculus with 6 samples.

Results

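Endothelial cells (EC) attract and hold leukocytes partly through the chemokines they make, and 10 such genes were followed here in sorted mouse kidney EC. They were 9 chemokine ligands (Ccl2, Ccl7, Cxcl1, Cxcl2, Cxcl9, Cxcl10, Cxcl12, Cxcl16 and Cx3cl1) and Ackr3, a scavenger receptor for Cxcl12. The genes were chosen by name as chemokines with known endothelial sources, and all 10 were found by symbol among the 55401 genes of the count table. The choice was not blind, as earlier results of these data were known. The study asked what loss of Notch signalling does to the kidney endothelium, and compared RNA from EC of 3 CTRL and 3 RbpjΔEC mice, 1 library per mouse. RbpjΔEC mice carried Cdh5CreERT2 and floxed Rbpj (Cdh5CreERT2/-; Rbpj f/f), so that tamoxifen removes Rbpj, the DNA-binding protein through which all Notch receptors act, from cells with an active Cdh5 promoter. CTRL mice were littermates with the same floxed alleles and no Cre (Cre -/-; Rbpj f/f). Mice of both groups received 5 doses of 1.5 mg tamoxifen i.p. at 8 weeks of age, and kidneys were taken 12 weeks after induction, with an age of 21 weeks on the labels. The Cdh5 promoter is active in vessels of every organ, so the deletion was not limited to the kidney, and no CTRL mouse carried Cre, so that effects of Cre itself cannot be told apart from those of the deletion. Cells were enriched with beads for CD31 and then sorted as CD31+CD45-, a gate that keeps EC and should leave out leukocytes and cells without CD31, such as tubule, mural and stromal cells.

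Chemokines are small proteins that steer leukocytes through G protein-coupled receptors, and endothelium displays them on heparan sulfate chains at the vessel surface. Cxcl1 and Cxcl2 call neutrophils through Cxcr2, Cxcl9 and Cxcl10 call activated T cells through Cxcr3 and are classical targets of interferon, and Ccl2 and Ccl7 call monocytes through Ccr2. Cxcl12 is made in the resting state and acts through Cxcr4, while Cx3cl1 and Cxcl16 are made as membrane proteins that can tether cells directly and are cut from the surface by Adam10 and Adam17. Atypical receptors such as Ackr3 bind chemokines without classical signalling and remove them.

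The libraries held between 39649171 and 47726850 counts assigned to genes, so that 3 counts, the upper limit that a count of 0 allows, corresponded to 0.0634 to 0.0749 CPM (counts scaled to library size). CTRL 1 stood apart in that 33764 genes had a count in it, against 25629 to 26785 in the other libraries, and in its neutrophil markers (summed level 9.15 CPM against 0.774 to 1.81). Values without CTRL 1 are given beside many of the results but not all, and the macrophage markers lack fold changes without it. Counts over the whole Rbpj gene did not show the deleted part, with a log2 fold change of -0.05 (SE 0.0867, edgeR adjusted p = 0.793), and they check nothing here about recombination. For Hey1, a direct Notch target, the log2 fold change was -0.76 (SE 0.176, edgeR adjusted p = 0.0722).

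Of the 10 genes, 9 had enough counts to be tested and Ccl7 did not. With edgeR, 0 of the 9 passed an adjusted p of 0.05 over all 18438 genes tested, of which 1.13% passed. At an unadjusted p under 0.05 there were 5 of 9, with 2 higher and 3 lower in RbpjΔEC, against 17.5% of all genes. The CPM of the groups did not overlap for the same 5 genes, against 23.0% of all genes. These were Cxcl1 and Cxcl10, with higher values in RbpjΔEC, and Cx3cl1, Cxcl12 and Cxcl16, with lower values. DESeq2, the tool of the study, passed Cx3cl1 and Cxcl12 as lower (2 of 10), against 1.52% of all genes with a count. The median log2 fold change over the 9 genes was -0.10, beside 0.01 over all genes tested. In bulk RNA, fewer cells of a type and less RNA per cell cannot be told apart.

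**Figure D1:**
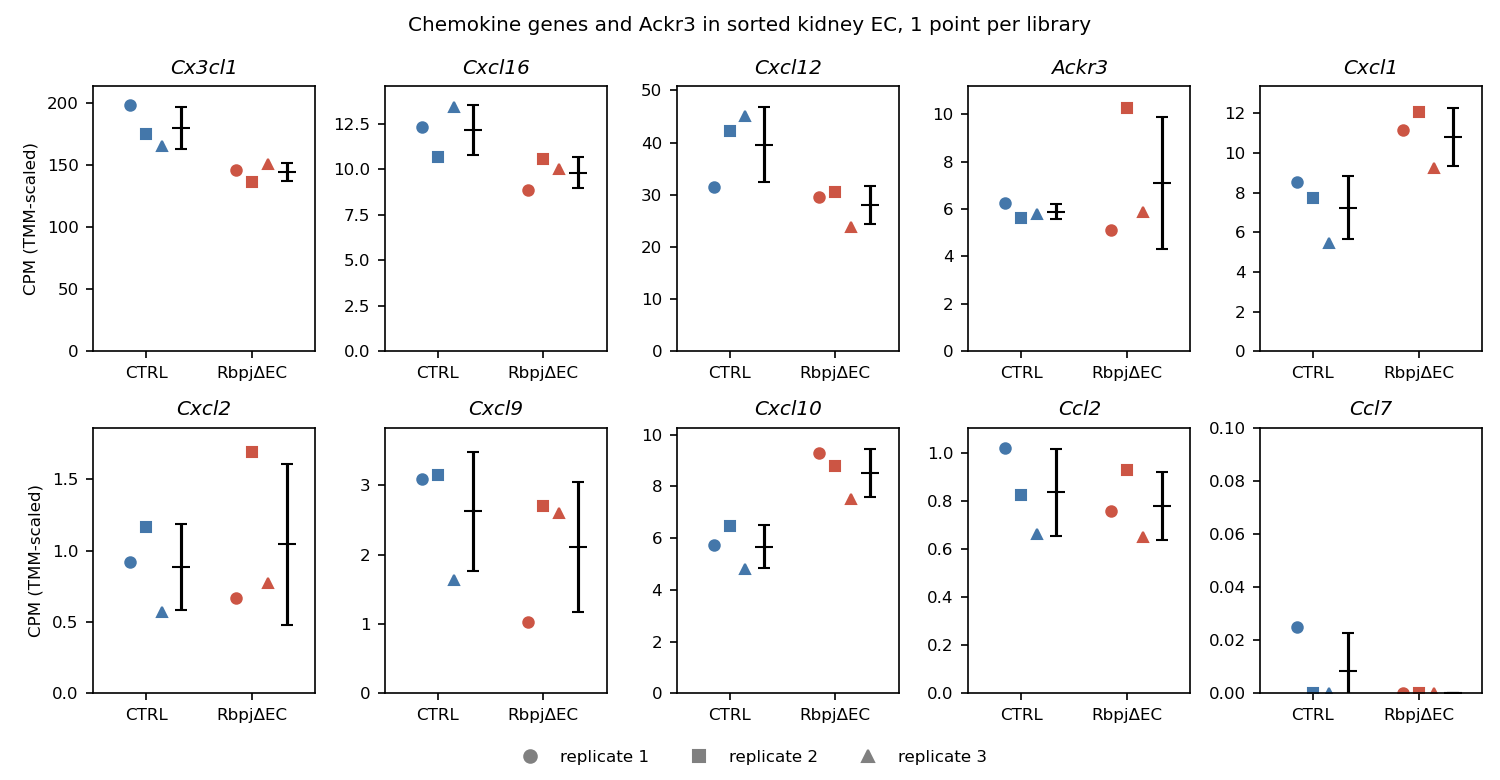
CPM (vertical axes, linear from 0, scaled by TMM factors) of each gene in the 3 CTRL (blue) and 3 RbpjΔEC (red) libraries, 1 point per library with its replicate number as the symbol, and the group mean with its SD in black. The groups are apart for Cx3cl1, Cxcl16, Cxcl12, Cxcl1 and Cxcl10 and overlap for Ackr3, Cxcl2, Cxcl9 and Ccl2, and Ccl7 has 1 read in all.

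Among the sequences just upstream of these genes, 4 are shown because they hold known binding letters, and of their genes Cxcl1, Cxcl10 and Cxcl12 had groups that did not overlap while Cxcl2, with the same letters as Cxcl1, did not separate. They are the bases before the annotated start of Cxcl1 (chr5:90890995-90891240, plus strand), Cxcl2 (chr5:90903649-90903870, plus strand), Cxcl10 (chr5:92348890-92349139, minus strand) and Cxcl12 (chr6:117168285-117168534, plus strand), from RefSeq on GRCm38.p6, each written 5′ to 3′ on the strand of its gene. Capitals mark matches to the NF-kB (kappa-B) consensus in Cxcl1, Cxcl2 and Cxcl10, to the interferon-stimulated response element (GAAA, any 2 bases, GAAA) and TGAGTCA (AP-1) in Cxcl10, and to TGGGAA (the core that RBPJ binds) in Cxcl12.
Cxcl1: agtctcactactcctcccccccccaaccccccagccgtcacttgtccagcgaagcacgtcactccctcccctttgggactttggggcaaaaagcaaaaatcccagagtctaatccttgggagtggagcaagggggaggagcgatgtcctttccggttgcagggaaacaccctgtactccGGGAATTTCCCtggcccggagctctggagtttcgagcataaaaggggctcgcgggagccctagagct
Cxcl2: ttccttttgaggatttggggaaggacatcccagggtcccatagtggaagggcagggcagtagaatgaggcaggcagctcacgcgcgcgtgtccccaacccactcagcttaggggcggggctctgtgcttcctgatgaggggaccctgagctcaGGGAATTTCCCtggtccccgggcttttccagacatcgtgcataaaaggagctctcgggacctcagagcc
Cxcl10: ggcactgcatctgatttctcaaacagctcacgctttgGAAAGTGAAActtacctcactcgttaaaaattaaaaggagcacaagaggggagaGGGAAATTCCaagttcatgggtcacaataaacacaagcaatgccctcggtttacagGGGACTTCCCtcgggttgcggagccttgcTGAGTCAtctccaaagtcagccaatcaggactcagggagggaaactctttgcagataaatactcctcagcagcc
Cxcl12: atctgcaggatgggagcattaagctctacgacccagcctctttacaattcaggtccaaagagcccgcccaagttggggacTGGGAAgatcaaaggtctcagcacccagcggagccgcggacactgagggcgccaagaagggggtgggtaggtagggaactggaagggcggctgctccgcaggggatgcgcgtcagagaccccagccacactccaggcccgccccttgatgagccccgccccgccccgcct
RefSeq promoters were at hand for 7 of the 10 genes, and both strands of the 250 bases before each RefSeq start were searched. Cxcl1 and Cxcl2 held the same kappa-B run, which reads as a match on either strand in overlapping positions, from -71 and from -97 relative to the RefSeq start. The printed Cxcl1 and Cxcl2 sequences end before the GENCODE start, which lies 4 and 28 bases before that of RefSeq. Positions for these genes therefore do not count back from the last printed base, and their placement depends on the start used. Cxcl10 held kappa-B matches from -159 and from -103, the interferon element from -213 and AP-1 from -74. The RBPJ core began at -170 in Cxcl12, and in Cx3cl1 it was on the opposite strand from -159, inside the gene as GENCODE draws it, whose start lies 171 bases before that of RefSeq. Cxcl9 and Ackr3 had no match to any of these letters in the window. Over 32851 mouse promoters of the same length, 3.9% held kappa-B, 2.98% the interferon element, 4.46% AP-1 (TGACTCA or TGAGTCA) and 21.6% the RBPJ core, so that the last is common by its letters alone. A match describes the sequence and was not tested for binding.

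Cx3cl1 (ENSMUSG00000031778.13, chr8:94772009-94782427, plus strand), the membrane-bound fractalkine that binds Cx3cr1 on monocytes, was by far the most abundant of the 10. Its CPM was 199, 175 and 166 in the CTRL libraries 1 to 3, whereas the RbpjΔEC libraries 1 to 3 held 146, 137 and 151. Every RbpjΔEC library was below every CTRL library, and the group means were 180.0 ± 17.0 and 145 ± 7.36 (SD, n = 3). The log2 fold change was -0.31 (SE 0.0799, 95% interval -0.49 to -0.14), with an edgeR adjusted p of 0.0820 and a DESeq2 adjusted p of 0.0392. Leaving out any 1 library gave log2 fold changes between -0.37 and -0.24, with -0.24 and an edgeR adjusted p of 0.268 without CTRL 1.

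Cxcl16 (ENSMUSG00000018920.11, chr11:70453983-70459984, minus strand), the other membrane-anchored chemokine and the ligand of Cxcr6, had CPM of 12.3, 10.7 and 13.4 in CTRL and 8.88, 10.5 and 10.01 in RbpjΔEC. The groups were apart by the smallest of margins, at 10.7 for CTRL 2 and 10.5 for RbpjΔEC 2. Its log2 fold change was -0.31 (SE 0.132, edgeR adjusted p = 0.252, DESeq2 adjusted p = 0.583), about the size of that of Cx3cl1 with a wider interval (-0.59 to -0.02), and it was -0.30 without CTRL 1 (edgeR adjusted p = 0.478). Exons of Cxcl16 overlap those of Zmynd15 on the other strand, and 17.9% of its possible 38-base reads are shared with that gene. How strand was set in counting is not given in the sources used here. Zmynd15 had 199, 245 and 165 counts in CTRL and 268, 271 and 235 in RbpjΔEC, a log2 fold change of 0.38 (SE 0.176, edgeR adjusted p = 0.288) and so of the other sign.

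The enzymes that cut these proteins from the surface, and those that build the heparan sulfate on which chemokines are shown, were listed together, and all 9 were tested. With edgeR and with DESeq2 0 of 9 passed, and at an unadjusted p under 0.05 there were 2, 1 in each direction, a share near the 17.5% of all genes. Adam17 had CPM of 98.4, 97.0 and 94.6 in CTRL and 86.8, 82.6 and 84.1 in RbpjΔEC, groups that do not overlap (log2 fold change -0.19, SE 0.0648, edgeR adjusted p = 0.152). Adam10 was at 333, 303 and 345 CPM in CTRL and 286, 351 and 260 in RbpjΔEC, groups that overlap through RbpjΔEC 2 alone (log2 fold change -0.13, SE 0.104, edgeR adjusted p = 0.563). Ext1, which lengthens heparan sulfate chains, had a log2 fold change of 0.19 (edgeR adjusted p = 0.229), and Hs2st1, which sulfates them, one of -0.16 (edgeR adjusted p = 0.303).

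Cxcl12 (ENSMUSG00000061353.11, chr6:117168535-117181367, plus strand), the homeostatic ligand of Cxcr4, had CPM of 31.5, 42.2 and 45.2 in CTRL and 29.5, 30.6 and 23.8 in RbpjΔEC. The groups did not overlap, although CTRL 1 (31.5) lay next to RbpjΔEC 2 (30.6). Means were 39.6 ± 7.21 and 28.0 ± 3.65 (SD, n = 3), and the log2 fold change was -0.50 (SE 0.142, 95% interval -0.82 to -0.18). The edgeR adjusted p was 0.116 and the DESeq2 adjusted p 0.0372. Without CTRL 1 the log2 fold change was -0.65 (edgeR adjusted p = 0.0540), and over all libraries left out in turn it lay between -0.65 and -0.40.

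Its receptors on the same cells gave no call. Ackr3 (ENSMUSG00000044337.5, chr1:90203980-90216751, plus strand), which clears Cxcl12, had CPM of 6.24, 5.64 and 5.80 in CTRL and 5.11, 10.2 and 5.89 in RbpjΔEC. RbpjΔEC 2 alone was high, and the other two RbpjΔEC libraries lay around the CTRL values. The log2 fold change of 0.27 (SE 0.239, 95% interval -0.26 to 0.79, edgeR adjusted p = 0.603) turned to -0.10 without RbpjΔEC 2. Cxcr4, the signalling receptor, had CPM of 7.08, 9.21 and 8.71 in CTRL and 5.26, 9.30 and 6.81 in RbpjΔEC, and its groups overlapped (log2 fold change -0.23, SE 0.203, edgeR adjusted p = 0.598).

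Cxcl1 (ENSMUSG00000029380.11, chr5:90891241-90893115, plus strand), a neutrophil chemokine, had CPM of 8.53, 7.73 and 5.47 in CTRL and 11.1, 12.1 and 9.23 in RbpjΔEC. All RbpjΔEC values were above all CTRL values, with means of 10.8 ± 1.45 and 7.24 ± 1.59 (SD, n = 3). The log2 fold change was 0.58 (SE 0.178, 95% interval 0.19 to 0.97), with an edgeR adjusted p of 0.126 and a DESeq2 adjusted p of 0.122. Without CTRL 1 it was 0.71 (edgeR adjusted p = 0.183), and without CTRL 3, the lowest library, 0.41 (edgeR adjusted p = 0.331).

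Cxcl2 (ENSMUSG00000058427.10, chr5:90903871-90905938, plus strand) lies 10756 bases from Cxcl1, acts on the same receptor and carries the same kappa-B run upstream. It was much scarcer, with 37, 55 and 24 counts in CTRL and 30, 71 and 31 in RbpjΔEC. RbpjΔEC 2 was the highest and the groups overlapped. The log2 fold change was 0.24 (SE 0.437, edgeR adjusted p = 0.816), its 95% interval from -0.72 to 1.19 holds the value of Cxcl1, and it was -0.30 without RbpjΔEC 2 and near 0 (-0.00088) without CTRL 3. Of its possible 38-base reads 6.65% are shared with Cxcl3, which had 2 counts in CTRL 1 and none elsewhere. Cxcl15, the other chemokine gene within 100 kb of Cxcl1, likewise had 2 counts in CTRL 1 alone.

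Cxcl10 (ENSMUSG00000034855.13, chr5:92346638-92348889, minus strand), a Cxcr3 ligand induced by interferon and by NF-kB, had CPM of 5.74, 6.49 and 4.81 in CTRL and 9.30, 8.77 and 7.51 in RbpjΔEC. The groups were well apart, with means of 5.68 ± 0.841 and 8.53 ± 0.920 (SD, n = 3). The log2 fold change was 0.59 (SE 0.165, 95% interval 0.23 to 0.95), with an edgeR adjusted p of 0.103 and a DESeq2 adjusted p of 0.0979, and it was 0.59 again without CTRL 1 (edgeR adjusted p = 0.267). Of its possible 38-base reads 4.14% are shared with Art3 on the other strand, whose log2 fold change was -0.05 (SE 0.147, edgeR adjusted p = 0.897).

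The other Cxcr3 ligands, next to Cxcl10 on chromosome 5, had values that overlapped between groups. Cxcl9 (ENSMUSG00000029417.9, chr5:92321347-92328079, minus strand) had CPM of 3.09, 3.15 and 1.63 in CTRL and 1.03, 2.69 and 2.595 in RbpjΔEC. Its lowest library was RbpjΔEC 1, and the log2 fold change of -0.32 (SE 0.383, 95% interval -1.17 to 0.52, edgeR adjusted p = 0.707) became 0.01 without it and -0.19 without CTRL 1. Cxcl11 had 87, 55 and 34 counts in CTRL and 76, 45 and 34 in RbpjΔEC, nearly the same spread in each group (log2 fold change -0.19, SE 0.411, edgeR adjusted p = 0.850). The difference between Cxcl10 and its neighbours was not tested.

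Of the monocyte chemokines, Ccl2 was low and Ccl7 was at the edge of detection. Ccl2 (ENSMUSG00000035385.5, chr11:82035571-82037453, plus strand) had 41, 39 and 28 counts in CTRL and 34, 39 and 26 in RbpjΔEC, and the groups overlapped almost fully. Its log2 fold change was -0.10 (SE 0.366, 95% interval -0.90 to 0.70, edgeR adjusted p = 0.915), and it was 0.06 without CTRL 1 and 0.01 without RbpjΔEC 3. That interval is wide and holds changes in either direction, and the size of change that could have been detected was not computed. Ccl7 (ENSMUSG00000035373.2, chr11:82045712-82047525, plus strand), 8259 bases further on, had 1 count in CTRL 1 and 0 in the other 5 libraries, where a count of 0 allows up to 0.0634 to 0.0749 CPM. A single read does not show whether these EC express Ccl7. The neighbours Ccl8, Ccl11 and Ccl12 had 0 counts in all 6 libraries, and next to Cx3cl1 on chromosome 8, Ccl17 and Ccl22 had at most 4 counts in a library.

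**Figure D2:**
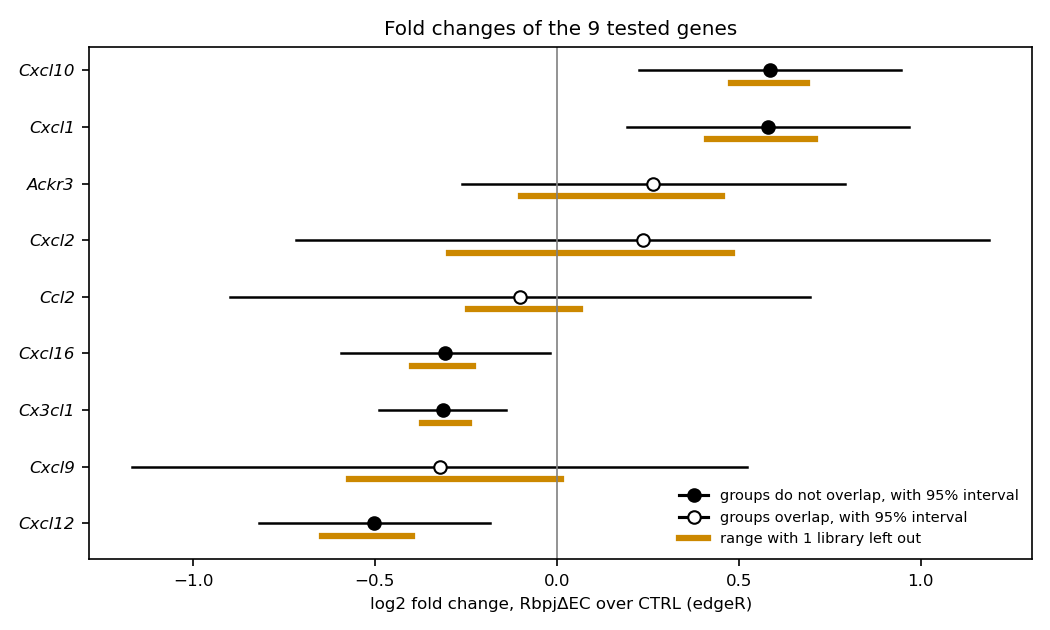
Log2 fold change of RbpjΔEC over CTRL (horizontal axis, edgeR) for the 9 tested genes, with 95% intervals in black and the range of values with 1 library left out in orange, and filled points where the groups do not overlap. The 5 filled points keep their side of 0 whichever library is left out (Cxcl12 from -0.65 to -0.40, Cxcl10 from 0.48 to 0.69), and the orange ranges of Ackr3, Cxcl2, Ccl2 and Cxcl9 cross 0.

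Levels of different genes were compared as CPM per kb of exonic length. In CTRL, Cx3cl1 stood at 45.8 ± 4.32 (SD, n = 3) and made up 70.6% of the summed level of the 10 genes. Cxcl12 (4.85), Cxcl16 (4.02) and Cxcl1 (3.86) followed with overlapping ranges, so that their order is not set beyond the spread. Cxcl10 at 2.52 and Ackr3 at 1.76 each stood apart from their neighbours in the order. Cxcl9 (0.870) and Ccl2 (0.735) overlapped, and Cxcl2 (0.428) and Ccl7 (0.0104) came last.

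The order in RbpjΔEC differed in the middle. Cx3cl1 was still first at 36.8 CPM per kb, 64.5% of the summed level. Cxcl1 came second (5.77, range 4.92 to 6.45), above Cxcl10 (3.79, range 3.34 to 4.13), and Cxcl10 overlapped with Cxcl12 (3.42) and Cxcl16 (3.25). Ackr3, Cxcl9, Ccl2, Cxcl2 and Ccl7 had the same places as in CTRL, although Ackr3 (up to 3.06) overlapped with Cxcl16 (from 2.94), and the ranges of Cxcl9 (0.340 to 0.893), Ccl2 (0.570 to 0.817) and Cxcl2 (0.324 to 0.818) all overlapped. The order was the same for all 10 genes in CTRL when the longest single transcript served as the length.

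**Figure D3:**
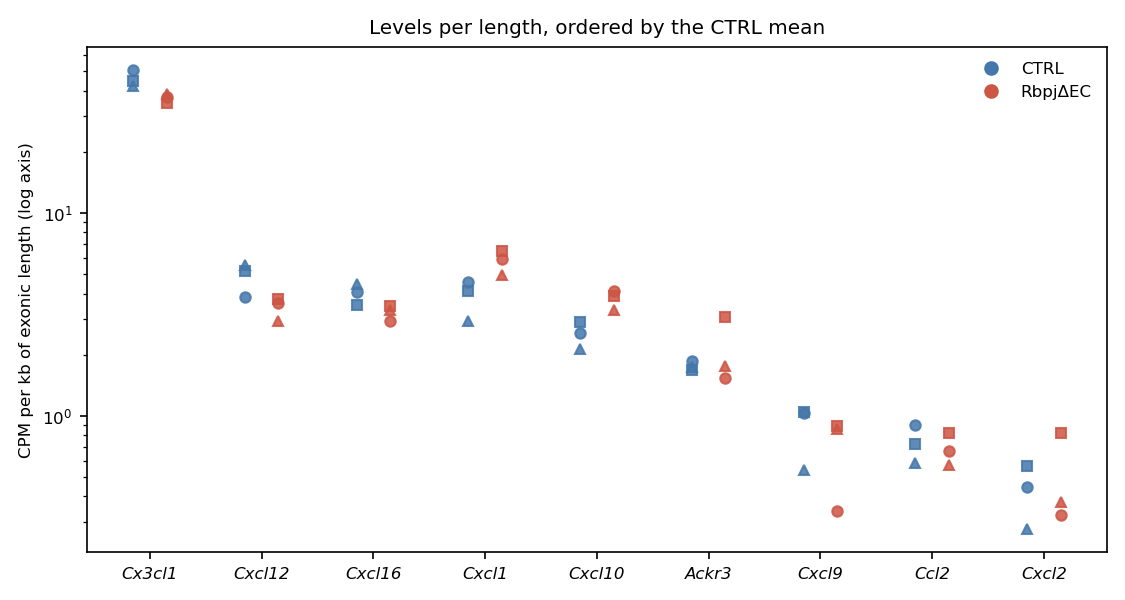
CPM per kb of exonic length (vertical axis, log scale) of the 9 genes with counts in all libraries, ordered from left to right by the CTRL mean, with 1 point per library in CTRL (blue) and RbpjΔEC (red) and replicate numbers as symbols. Cx3cl1 is far above the rest, and Cxcl1 and Cxcl10 are higher in red than in blue where Cxcl12 and Cxcl16 are lower. Ccl7, with 1 read in all, cannot be drawn on a log axis.

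Summed over the 10 genes, the level was 268, 253 and 243 CPM in CTRL and 212, 214 and 212 in RbpjΔEC. That sum was mostly Cx3cl1. The same split into higher and lower genes was seen with library size alone as the scale, where the median of all genes tested moved by 0.04 on the log2 scale.

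The remaining chemokine system was thinly represented in these libraries. Of 29 other ligands, 7 had no count in any library and 7 passed the filter on low counts. With edgeR 0 of 7 passed, with 1 at an unadjusted p under 0.05 (17.5% of all genes), and DESeq2 passed that same gene, Ccl21a, the chemokine that guides Ccr7-bearing lymphocytes and dendritic cells along lymphatics and high endothelial venules. Ccl21a had CPM of 2.54, 1.54 and 3.08 in CTRL and 0.781, 1.17 and 0.624 in RbpjΔEC, lower in every RbpjΔEC library (log2 fold change -1.47, SE 0.354, edgeR adjusted p = 0.0703, DESeq2 adjusted p = 0.0210). It has near-identical copies in the mouse genome, between which reads can be split, so this value is uncertain. Ccl25, a ligand of Ccr9, had the highest level of the list, at 12.8 to 17.6 CPM in CTRL and 17.1 to 18.5 in RbpjΔEC (log2 fold change 0.27, SE 0.124, edgeR adjusted p = 0.290). Ccl27a, a ligand of Ccr10, had a log2 fold change of 0.22 (SE 0.286, edgeR adjusted p = 0.729). The other lymphoid chemokines were at or near 0, with Ccl19 at 0 counts in every library and Cxcl13 at 1 count in CTRL 1 and in CTRL 3.

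Of 22 chemokine receptors, 6 passed the filter, and 0 passed the test with edgeR or with DESeq2, with 1 at an unadjusted p under 0.05, a share near the 17.5% of all genes. All 6 had a negative log2 fold change, with a median of -0.52, but without CTRL 1 only 4 of the 6 did, with a median of -0.28. Ccrl2, which presents chemerin and does not signal, was the most abundant, at 95.5, 72.5 and 95.3 CPM in CTRL and 78.6, 66.7 and 71.5 in RbpjΔEC. Its groups overlapped (log2 fold change -0.28, SE 0.109, edgeR adjusted p = 0.220). The scavengers Ackr4 and Ackr2 had log2 fold changes of -0.79 (SE 0.417, edgeR adjusted p = 0.356) and -0.31 (SE 0.175, edgeR adjusted p = 0.385). Cx3cr1 and Ccr2, receptors of monocytes, were at 1.02 and 0.823 CPM in CTRL 1 and at no more than 0.499 and 0.308 in any other library, and without CTRL 1 their log2 fold changes were 0.47 and 0.55 (edgeR adjusted p = 0.901 and 0.876).

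The pathways known to induce these chemokines were read from lists of their genes, beside the 1.13% of all genes that passed with edgeR. Of 18 NF-kB and cytokine receptor genes, all tested, 1 passed with edgeR and was higher. This was Nfkbiz, a nuclear IkB protein that helps NF-kB switch on a second wave of genes, at 109, 155 and 109 CPM in CTRL and 237, 218 and 232 in RbpjΔEC (log2 fold change 0.88, SE 0.131, edgeR adjusted p = 0.0235). DESeq2 passed Nfkb2 as well, at 86.7, 82.5 and 63.4 CPM in CTRL and 117, 126 and 90.1 in RbpjΔEC. The median log2 fold change of the list was 0.02.

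Of 22 interferon pathway genes, all tested, 1 passed with edgeR and was higher, the transcription factor Irf1, at 240.1, 269 and 252 CPM in CTRL and 352, 363 and 315 in RbpjΔEC (log2 fold change 0.44, SE 0.0771, edgeR adjusted p = 0.0246). The median of the list was 0.06. No other gene of the list passed with edgeR or DESeq2, and the next smallest p belonged to Iigp1, an interferon-induced GTPase with a log2 fold change of 0.24 (SE 0.0839, edgeR adjusted p = 0.168) and Stat2, a signal carrier of type I interferon, with 0.26 (SE 0.106, edgeR adjusted p = 0.242).

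Immediate-early genes, which rise within minutes of a stimulus, had the most calls of these lists. Their list also held the heat shock chaperone genes Hspa1a and Hspa1b, which enter the counts and the sum below. Mean CPM of the 2 were 444 and 547 in CTRL and 713 and 890 in RbpjΔEC. DESeq2 passed both as higher (adjusted p = 2.81e-05 and 2.90e-05), and edgeR passed neither (adjusted p = 0.0738 and 0.0840). Of 26 listed, 25 were tested and 7 passed with edgeR, all higher, namely Fos, Junb, Egr1, Egr3, Atf3, Ier2 and Btg2, and DESeq2 passed 17, where 1.13% of all genes passed with edgeR and 1.52% with DESeq2. Fos had CPM of 449, 506 and 443 in CTRL and 687, 676 and 560.4 in RbpjΔEC, and Egr3 had the largest log2 fold change of the 7 (1.00, SE 0.170, edgeR adjusted p = 0.0326). The median log2 fold change was 0.51. The summed level was 7990 to 9637 CPM in CTRL and 10947 to 13074 in RbpjΔEC, and its part in the values of Cxcl1 and Cxcl10 was not tested. The number of immediate-early genes called fell to 1 without CTRL 1, RbpjΔEC 1 or RbpjΔEC 2, to 0 without CTRL 3, and was 12 without CTRL 2 and 13 without RbpjΔEC 3. Nfkbiz and Irf1 belong to lists with 0 calls without CTRL 1, CTRL 3, RbpjΔEC 1 or RbpjΔEC 2.

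**Figure D4:**
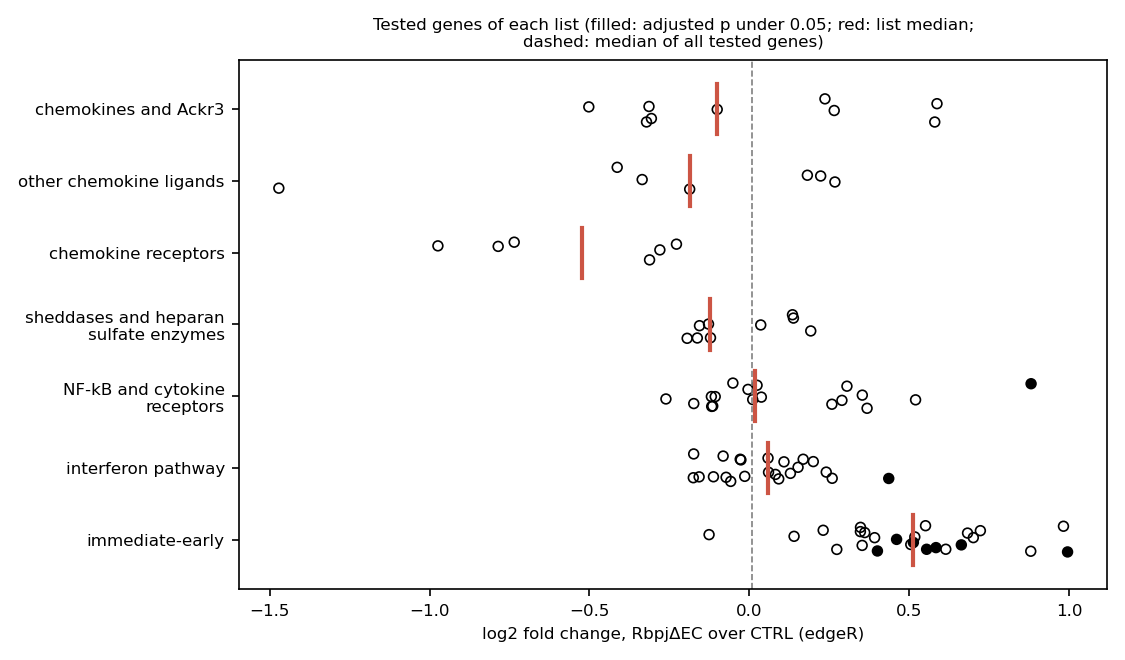
Log2 fold change of RbpjΔEC over CTRL (horizontal axis, edgeR) of the tested genes of 7 lists, 1 circle per gene, filled where the adjusted p is under 0.05, with list medians in red and the median of all tested genes dashed. The chemokine genes lie on either side of 0 with none filled, the 6 receptors are all left of 0 with every library in (4 of 6 without CTRL 1), and the immediate-early genes, with 7 filled, have a median of 0.51.

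The sorted cells carried the markers of their label, and leukocyte RNA was sparse. The 12 pan-endothelial markers summed to 17933 to 19972 CPM in CTRL and 16325 to 16896 in RbpjΔEC, led by Kdr, with 0 called by edgeR, 4 at an unadjusted p under 0.05 (3 of them lower, and the same number without CTRL 1) and 3 lower by DESeq2, where 17.5% of all genes had such a p and 1.52% passed with DESeq2. Kdr alone had a mean of 5994 CPM in CTRL and 4960 in RbpjΔEC. Of the 12 markers, 8 had a negative log2 fold change and 4 a positive one (Egfl7 0.22, Erg 0.06, Robo4 0.05 and Esam 0.01), with a median of -0.16. Without CTRL 1, 9 were negative and the median was -0.13. The lower values of Cx3cl1, Cxcl12 and Cxcl16 in RbpjΔEC thus stood beside a lower endothelial sum, to which not every marker contributed. The part of that sum in them was not tested. The 7 pan-leukocyte markers summed to 5.81 to 14.8 CPM in CTRL, highest in CTRL 1, and 5.08 to 6.09 in RbpjΔEC. Of the 5 tested, 0 were called by edgeR, 4 were lower at an unadjusted p under 0.05 and 1 was lower by DESeq2, with a median log2 fold change of -1.44, against the same shares of all genes. Without CTRL 1 there was 1 at such a p, and the median was -0.94. Laptm5, a lysosomal protein of leukocytes, had a log2 fold change of -1.80 (SE 0.459, edgeR adjusted p = 0.0820, DESeq2 adjusted p = 0.0394; -1.19 without CTRL 1) and groups that did not overlap, and Ptprc, which encodes CD45, had one of -1.44 (SE 0.509, edgeR adjusted p = 0.188; -1.02 without CTRL 1). These markers had lower values in RbpjΔEC as did Cx3cl1, Cxcl12 and Cxcl16, and their part in those values was not tested. Cd3e and Cd3d, which define T cells, were at 0 in all libraries. The neutrophil markers S100a8 and S100a9 were at 1.12 and 3.97 CPM in CTRL 1 and at no more than 0.127 elsewhere, in cells from which the CD45 gate removes neutrophils. Platelet markers (3.72 to 6.61 and 4.24 to 4.79 CPM) and T cell markers (3.39 to 5.53 and 4.91 to 8.73, mostly Lck) overlapped between CTRL and RbpjΔEC, and B cell markers did not (0.972 to 1.32 and 0.268 to 0.599). The 12 macrophage markers, of cells that also make chemokines, summed to 26.4 to 32.8 CPM in CTRL and 33.7 to 39.1 in RbpjΔEC. Without Cd68 the sum was 25.8, 14.2 and 20.2 CPM in CTRL and 11.6, 11.2 and 14.0 in RbpjΔEC, so that the other 11 markers had a lower sum in every RbpjΔEC library. With CTRL 1 in, all 5 of them that were tested had a negative log2 fold change (median -1.25). Fold changes without CTRL 1 are not given for them, and CTRL 1 was the highest library for C1qa and Lyz2. C1qa had CPM of 0.524, 0.0422 and 0.213 in CTRL and 0.268, 0.143 and 0.250 in RbpjΔEC. Lyz2 had 2.57, 0.444 and 1.11 in CTRL and 0.401, 0.429 and 0.898 in RbpjΔEC. Cd68, a lysosomal protein, was higher (log2 fold change 1.27, edgeR adjusted p = 0.0154), while Mrc1, the mannose receptor, was lower (-1.56, edgeR adjusted p = 0.0261) and Csf1r, a defining receptor of macrophages, was at 1.25 to 3.84 CPM in CTRL and 0.453 to 1.27 in RbpjΔEC. Of these calls 1 was left without CTRL 1, and 0 without CTRL 3, RbpjΔEC 1 or RbpjΔEC 2.

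Mural and stromal cells, which a CD31+ sort should remove, make Cxcl12 as well, and their summed markers were lower in every RbpjΔEC library than in any CTRL library. The 11 mural markers summed to 255 to 335 CPM in CTRL and 210.1 to 240.2 in RbpjΔEC, most of it Mcam, which EC also express. Of the 10 tested, 3 passed with edgeR (1.13% of all genes did) and were lower, the contractile genes Acta2 (log2 fold change -1.30) and Myh11 (-1.08) and the pericyte gene Rgs5 (-0.88), and the calls numbered 0 without CTRL 1 or RbpjΔEC 1, 1 without CTRL 3 and 8 without RbpjΔEC 3 (7 lower and 1 higher). Kcnj8, a potassium channel of pericytes in the same list, had CPM of 12.3, 9.65 and 11.3 in CTRL and 18.6, 30.3 and 14.3 in RbpjΔEC, of the other sign with groups that did not overlap (log2 fold change 0.93, SE 0.276, edgeR adjusted p = 0.162, DESeq2 adjusted p = 0.00261). The 8 stromal markers summed to 4.69 to 7.33 CPM in CTRL and 1.61 to 2.92 in RbpjΔEC. Pdgfra was called lower among them (log2 fold change -1.67, edgeR adjusted p = 0.0468), a call absent without CTRL 1, CTRL 3, RbpjΔEC 1 or RbpjΔEC 2. The part of these cells in the Cxcl12 value was not tested. Tubule cells, which lack CD31 and which the sort should likewise remove, can make Cx3cl1 and Cxcl16, and the 9 tubule markers summed to 296 to 462 CPM in CTRL and 106 to 384 in RbpjΔEC, with 0 called by edgeR or DESeq2 and 4 lower at an unadjusted p under 0.05 (2 without CTRL 1, the highest library, and 17.5% of all genes in either direction). Of the 9, 7 had a negative log2 fold change, while Lrp2 and Slc34a1, of the proximal tubule, had positive ones (1.27 and 1.28, edgeR adjusted p = 0.523 and 0.516) and were highest in RbpjΔEC 3. The part of tubule RNA in the Cx3cl1 and Cxcl16 values was not tested. The 6 lymphatic markers, Ccl21a among them, summed to 620 to 713 CPM in CTRL and 645 to 682 in RbpjΔEC, mostly Flt4 (log2 fold change 0.01). Of the 5 tested, 0 were called by edgeR. At an unadjusted p under 0.05, 3 were lower (17.5% of all genes had such a p), and 2 were lower by DESeq2 (1.52% of all genes passed). The 3 were Ccl21a, Lyve1, a lymphatic hyaluronan receptor (-1.19, edgeR adjusted p = 0.162), and Reln (-0.72, edgeR adjusted p = 0.133, DESeq2 adjusted p = 0.0330). Lyve1 was at 0.923 to 1.42 CPM in CTRL and 0.310 to 0.774 in RbpjΔEC. The share of Ccl21a from lymphatic EC was not tested. The transcription factor of lymphatic EC, Prox1, had a log2 fold change of 0.17.

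**Figure D5:**
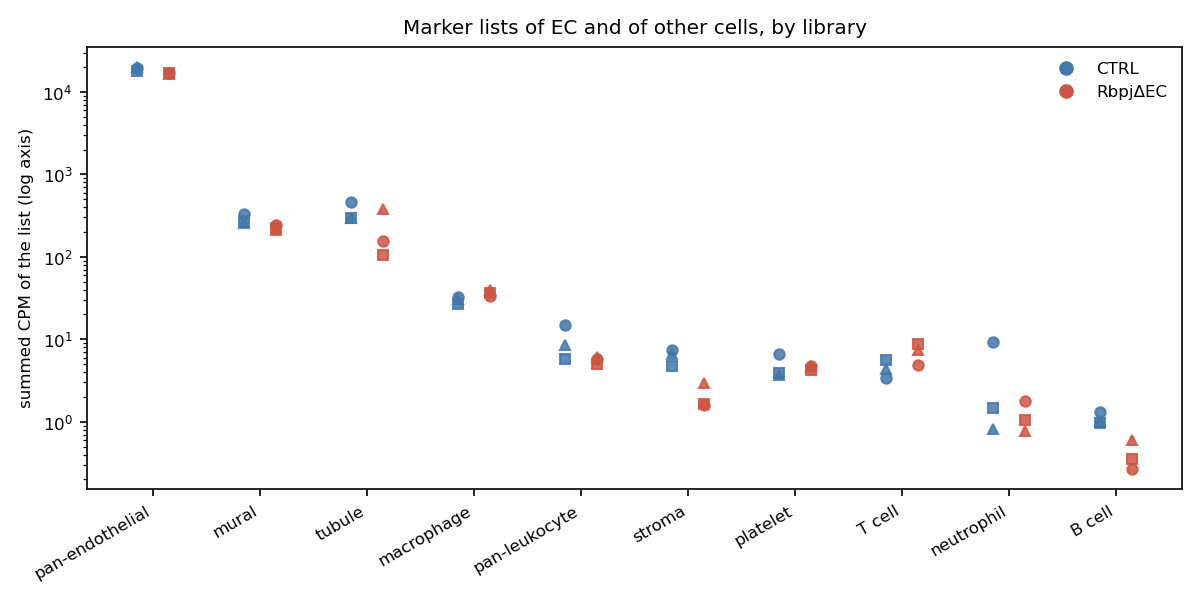
Summed CPM (vertical axis, log scale) of 10 marker lists in each CTRL (blue) and RbpjΔEC (red) library, with replicate numbers as symbols. The endothelial sum is at 16325 CPM or above, the leukocyte lists are below 40 CPM in every library, the mural and stromal sums are lower in red, and CTRL 1 stands out for neutrophil markers at 9.15 CPM.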

How the data were processed

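Per the labels and the methods of the study, stranded total RNA libraries were prepared from sorted kidney EC, trimmed with Trim Galore 0.6.4, aligned with STAR 2.6.1d to GRCm38.p6 (GENCODE) and counted with featureCounts of Subread 1.6.4 within nf-core/rnaseq 1.4.2. The authors deposited raw read counts per gene, and the strand setting of the counting is not given in the sources used here. The labels give no batch. Counts were tested with edgeR 4.0.16 in R 4.3.3 (filterByExpr, TMM, robust quasi-likelihood test, genotype as the only term), with Benjamini-Hochberg adjustment over all genes tested and a threshold of 0.05. DESeq2 1.42.0, without outlier or independent filtering, was an alternative, as were other scalings, filters, a replicate block and each library left out. CPM are divided by TMM-scaled library sizes. Same-numbered libraries did not deviate together (correlations of 0.0231, 0.00916 and 0.00544). No pair of libraries held identical counts (0 of 15 pairs). Floors for counts cover counting error only, whereas the intervals of the fold changes come from the edgeR fit and include the spread between libraries.

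Coordinates and exonic lengths are from GENCODE M21 on GRCm38, whose versioned IDs matched for all 10 genes. Promoters are from RefSeq on GRCm38.p6. All 10 chemokine genes are named. Of every chemokine or pathway list, the genes past the threshold are named, otherwise the 3 with the smallest p, and of the markers the most abundant and those at or near 0, together with chemokine genes within 100 kb. Some further genes (Adam10, Cxcr4, Cx3cr1, Ccr2, Ccl19, Cxcl13, Cxcl3, Nfkb2, Iigp1, Stat2, Csf1r, Laptm5, Ptprc, Lyve1, Prox1, Kcnj8, Lrp2, Slc34a1, Hspa1a, Hspa1b, Egfl7, Erg, Robo4, Esam, Reln, C1qa, Lyz2) were added after their values were seen. The members and lists were chosen with earlier results of these data known. Scripts were tested on simulated data.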

Additional observations from a re-analysis of the deposited data

How the results depend on the processing

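The call of 0 chemokine genes with edgeR held under DESeq2 size factors, library size alone, a filter of 1 CPM, the replicate block and each library left out (0 to 0), while DESeq2 called 2 and edgeR without a filter on low counts 4 (Cxcl1 and Cxcl10 higher, Cxcl12 and Cx3cl1 lower). Log2 fold changes that changed sign with a library left out were those of Ccl2 (from -0.25 to 0.063, above 0 without CTRL 1 and, at 0.014, without RbpjΔEC 3), Cxcl2 (from -0.30 without RbpjΔEC 2 to 0.48, and -0.00088 without CTRL 3), Cxcl9 (from -0.57 to 0.010 without RbpjΔEC 1) and Ackr3 (from -0.099 without RbpjΔEC 2 to 0.45). Over all genes, 209 calls became 1436 without the filter, 584 with DESeq2 and 344 with the replicate block, whose numbers the labels give but do not tie to litters or days, and 21 to 700 with a library left out. Library size alone moved the split of higher to lower calls from 106 and 103 to 159 and 82. For the lists, DESeq2 in place of edgeR gave 1 call for other ligands, B cell and pan-leukocyte markers, 2 for NF-kB genes, stroma, podocyte and lymphatic markers, 3 for pan-endothelial, 8 for mural (7 lower, 1 higher) and 17 for immediate-early genes. With a library left out, calls ranged from 0 to 1 for other ligands, receptors and pan-endothelial markers, from 0 to 2 for NF-kB genes and pan-leukocyte, stroma, tubule, podocyte and lymphatic markers, from 0 to 3 for interferon genes and macrophage markers, from 0 to 8 for mural markers and from 0 to 13 for immediate-early genes. The causes were not tested. At 24 to 71 counts a library, Ccl2 and Cxcl2 had intervals wide enough to hold changes of the size seen for Cxcl1. Receptors and pan-leukocyte, tubule and pan-endothelial markers without CTRL 1, and the macrophage sum without Cd68 were added after seeing the data.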
